A study of Mus musculus with 12 samples.

Results

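Fatty acid uptake and activation was described through 9 genes, listed by name with no threshold on their values but with earlier results of these data known: the lipase gene Lpl and its inhibitor gene Angptl4, the carrier genes Cd36, Fabp4 and Fabp5, and the acyl-CoA synthetase genes Acsl1, Acsl3, Acsl4 and Acsl5. The platform annotation gave 7 of the 9 a probe set of their own, out of 15267 genes tested, and Acsl1 and Fabp5 are not analysed here. The cells were 3T3-L1 adipocytes, fat cells differentiated in culture from a mouse fibroblast line, and RNA was measured on 12 Affymetrix arrays. There were 4 groups of 3 arrays each: TBLR1 shRNA with isoproterenol, control shRNA with isoproterenol, TBLR1 shRNA without isoproterenol and control shRNA without isoproterenol. All 4 groups had been transduced with an adenovirus at a multiplicity of infection of 500 on day 9 of differentiation, and 3 days later all were held for 2 h in Krebs-Ringer buffer. Isoproterenol was given at 10 µM for 3 h; it acts on β-adrenergic receptors, raises cAMP and thereby sets off lipolysis. TBLR1, encoded by Tbl1xr1, is a subunit of nuclear corepressor complexes. The model is a single cell line with 1 shRNA per target named in the labels, and every sample, controls included, carried virus. The labels do not say whether the 3 samples of a group were separate cultures, so a p-value reflects how far these samples vary, and that variation may be technical.

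Fat cells obtain fatty acids from circulating lipoproteins through lipoprotein lipase, an enzyme that adipocytes make and that acts at the wall of capillaries. Angiopoietin-like 4 is secreted by the same cells and inactivates the lipase. The released fatty acids enter the cell with the help of the membrane protein CD36, are carried in the cytosol by fatty acid binding proteins, and become usable for storage or oxidation only after a long-chain acyl-CoA synthetase has joined them to coenzyme A. Fatty acids that lipolysis sets free inside the cell need the same carriers and synthetases.

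Values are log2 signal levels, and a difference is a log2 difference ± SE from limma with n = 3 arrays per group, so that a difference of 1 is a doubling. A gene was called higher or lower at an adjusted p under 0.05, after Benjamini-Hochberg adjustment across the 15267 genes of a comparison. The targeted gene Tbl1xr1 was lower on every TBLR1 array. With isoproterenol it read 6.48, 6.41 and 6.37 with TBLR1 shRNA, against 7.23, 7.34 and 7.29 with control shRNA. On the untreated arrays it read 6.45, 6.47 and 6.43 with TBLR1 shRNA, against 7.20, 7.27 and 7.26 with control shRNA. The signal left was 54.9% with isoproterenol and 57.7% without it. The readings with TBLR1 shRNA lay below the array median of 7.14. At so low a signal, these percentages need not equal the share of transcript left.

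The cells carried markers of their label and also markers of preadipocytes and fibroblasts, so the levels of these markers alone do not set their identity. Of 9 measured adipocyte markers, 8 read above the array median of 7.14 in every group, and only Lep, which encodes leptin, lay below it with group means of 6.34 to 6.45. The counts of markers called for the shRNA stand against the shares of all genes. These were 22.3% lower and 19.5% higher with isoproterenol, and 20% lower and 17.7% higher without it. The adipocyte markers moved with the shRNA: 7 were lower and none higher with isoproterenol (median -0.36), and 7 were lower and Adipor2 higher without it (median -0.31). Their summed log2 level was 97.4 to 97.9 with TBLR1 shRNA and isoproterenol, against 101.8 to 102.4 with control shRNA and isoproterenol. Without isoproterenol the sum was 97.3 to 98.0 with TBLR1 shRNA, against 101.4 to 101.8 with control shRNA. In a bulk sample, fewer cells of a type and less RNA per cell cannot be told apart. Of 9 measured preadipocyte and fibroblast markers, 8 of them above the array median, Pdgfrb and Thy1 were higher and Dlk1, Col1a1, Col3a1 and Postn lower in both treatments, and Pdgfra was also lower without isoproterenol. Their summed level was 91.8 to 92.8 with TBLR1 shRNA and isoproterenol, against 92.6 to 93.4 with control shRNA and isoproterenol, and without the agonist 91.5 to 92.2 with TBLR1 shRNA, against 93.1 to 93.9 with control shRNA. Of 9 macrophage markers only Cd14 lay above the array median. It was higher with TBLR1 shRNA by 0.69 with isoproterenol and by 0.45 without it, and Csf1r was lower; isoproterenol raised Cd14 by 0.87 with TBLR1 shRNA and by 0.63 with control shRNA. The summed macrophage level was 58.7 to 59.1 with TBLR1 shRNA and isoproterenol, 58.3 to 58.7 with control shRNA and isoproterenol, 58.1 to 58.3 with TBLR1 shRNA alone and 57.5 to 58.1 with control shRNA alone. None of 8 endothelial markers lay above the median, and the 1 that was called was Tek (0.13 with isoproterenol). Their summed level lay between 49.0 and 49.7 on every array. The actin probe sets, whose 3' minus 5' signal reflects RNA quality, differed by 1.02 ± 0.03 with TBLR1 shRNA and isoproterenol, 1.02 ± 0.03 with control shRNA and isoproterenol, 0.89 ± 0.02 with TBLR1 shRNA alone and 0.94 ± 0.02 with control shRNA alone (SD, n = 3), so it was larger in treated cells. The part of these shifts in the results below was not tested.

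With TBLR1 shRNA the synthetase gene Acsl3 stood at 50.0% of its control signal with isoproterenol and at 51.4% without it. The inhibitor gene Angptl4 and the synthetase genes Acsl4 and Acsl5 were 1.24-fold to 1.51-fold higher, the lipase gene Lpl was slightly lower, and the carrier gene Fabp4 was not called. With isoproterenol 6 of the 7 genes were called, 3 higher and 3 lower, where 41.7% of all genes were called, 19.5% higher and 22.3% lower. Without isoproterenol 5 of 7 were called, 3 higher and 2 lower, against 37.7% of all genes, 17.7% higher and 20% lower. The arrays of the shRNA groups did not overlap for 6 of the 7 genes in either treatment, against 49.1% of all genes with isoproterenol and 46.9% without it. The median difference of the 7 genes was close to 0 in both cases (-0.06 with isoproterenol and -0.02 without it, against -0.01 for all genes), since some rose and some fell. The median size of a difference, whatever its sign, was 0.43 with isoproterenol and 0.31 without it, against 0.10 and 0.09 for all genes. All 7 genes read 9.01 or higher on every array, above the array median of 7.14, so the background holds many dimmer genes. With the lowest 33% of genes left out, 6163 were called with isoproterenol (6372 of all 15267) and 5712 without it (5756 of all). The share called was thus larger among brighter genes, and the shares of all genes are a low mark for these 7.

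**Figure D1:**
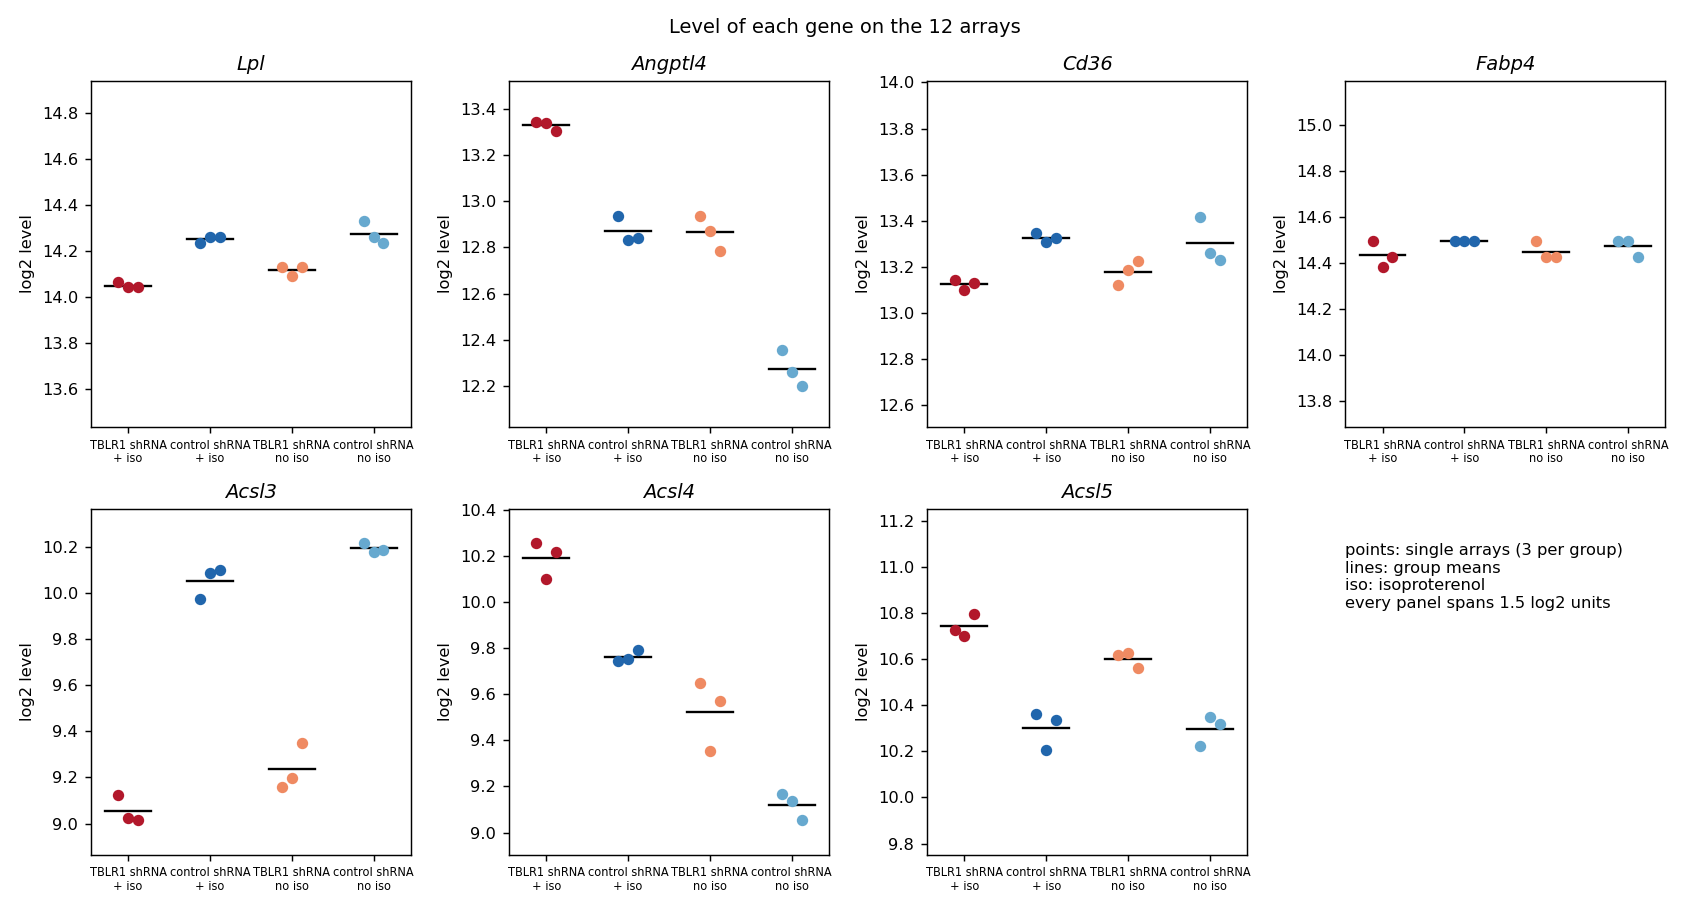
Log2 level (vertical axis, with the same span in every panel) of the 7 measured genes in the 4 groups (horizontal axis); points are single arrays, 3 per group, and lines are group means. Acsl3 lies near 9.0 to 9.4 with TBLR1 shRNA and near 10.0 to 10.2 with control shRNA, Acsl4 and Angptl4 differ with both the shRNA and isoproterenol, and Fabp4 spans 0.11 in all.

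Lpl, the lipase gene, was slightly lower with TBLR1 shRNA. It read 14.06, 14.04 and 14.04 with TBLR1 shRNA and isoproterenol, against 14.23, 14.26 and 14.26 with control shRNA and isoproterenol. Without the agonist its readings were 14.13, 14.09 and 14.13 with TBLR1 shRNA, against 14.33, 14.26 and 14.23 with control shRNA. All TBLR1 arrays lay below all control arrays of the same treatment, and by small margins. The difference was -0.20 ± 0.04 with isoproterenol (limma adjusted p = 0.000313), which left 86.9% of the control signal, and -0.16 ± 0.04 without it (adjusted p = 0.00297), which left 89.7%. Both calls ended when each array was centred on its hybridisation controls (-0.09 with isoproterenol, adjusted p = 0.232, and -0.09 without it, adjusted p = 0.316). That centring moved the median of all genes to 0.10 with isoproterenol and to 0.06 without it, and relative to those medians Lpl stood at -0.19 and -0.15. Lpl ranked 8th to 23rd among the 16553 probe sets of an array, near the top of a scale that quantile normalisation makes common to all arrays, where a value can only follow a change of rank.

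Angptl4, the inhibitor gene, was higher with TBLR1 shRNA and also higher with isoproterenol. With both it read 13.35, 13.34 and 13.31, against 12.94, 12.83 and 12.84 with control shRNA and isoproterenol. Without isoproterenol it read 12.94, 12.87 and 12.79 with TBLR1 shRNA, against 12.36, 12.26 and 12.20 with control shRNA. No array of a TBLR1 group overlapped the control group of the same treatment, and no treated array overlapped the untreated ones of the same shRNA. TBLR1 shRNA raised Angptl4 by 0.46 ± 0.05 with isoproterenol, 1.38-fold (limma adjusted p = 1.32e-06), and by 0.59 ± 0.05 without it, 1.51-fold (adjusted p = 1.08e-07). Isoproterenol raised it by 0.46 ± 0.05 with TBLR1 shRNA (1.38-fold, adjusted p = 1.59e-05) and by 0.60 ± 0.05 with control shRNA (1.51-fold, adjusted p = 3.41e-07). The untreated TBLR1 arrays and the treated control arrays stood at about the same level, with a gap of 0.01 ± 0.05 between the group means (limma adjusted p = 0.953). The order was thus highest with both, lowest with neither, and between them with either alone. The 2 middle levels were neither shown to differ nor shown to be equal. The lipase gene and the gene of its inhibitor hence differed in opposite directions with the shRNA, and with isoproterenol only Angptl4 of the pair was called.

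Cd36, the gene of the fatty acid translocase, showed a small difference of the same kind as Lpl. It read 13.14, 13.10 and 13.13 with TBLR1 shRNA and isoproterenol, against 13.35, 13.31 and 13.32 with control shRNA and isoproterenol. On the untreated arrays it read 13.12, 13.19 and 13.22 with TBLR1 shRNA, against 13.41, 13.26 and 13.23 with control shRNA. The groups did not overlap in either treatment, although the margin without isoproterenol was narrow. Cd36 was lower by -0.20 ± 0.05 with isoproterenol (limma adjusted p = 0.00243, 87.0% left), a call that ended with hybridisation control centring (-0.09, adjusted p = 0.254, or -0.19 relative to the median of all genes under that centring). Without isoproterenol the difference of -0.12 ± 0.05 missed the threshold (adjusted p = 0.0505). It was called without untreated control replicate 3 (adjusted p = 0.0221), without untreated TBLR1 replicate 3 (0.0426), with trend and robust variance moderation (0.0262) and without the lowest 33% of genes (0.0358).

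Fabp4, the gene of the main fatty acid binding protein of fat cells, was called in no comparison. It read 14.49, 14.38 and 14.43 with TBLR1 shRNA and isoproterenol, and 14.49 on all 3 arrays with control shRNA and isoproterenol. Without the agonist its readings were 14.49, 14.43 and 14.43 with TBLR1 shRNA, against 14.49, 14.49 and 14.43 with control shRNA. The groups overlapped. The difference was -0.06 ± 0.04 with isoproterenol (95% interval -0.14 to 0.03, limma adjusted p = 0.281) and -0.02 ± 0.04 without it (adjusted p = 0.728). Its sign turned after cyclic loess (0.02 with isoproterenol, 0.03 without it) and with hybridisation control centring (0.05 in both). Relative to the median of all genes under that centring, Fabp4 stayed slightly below 0, at -0.05 with isoproterenol and -0.01 without it. Fabp4 ranked 3rd to 6th of all probe sets on every array and took only 3 distinct values, with 7 arrays at the highest of them. The interval above therefore describes the normalised value, and the absence of a call does not bound the change of the transcript.

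The 3 measured acyl-CoA synthetases went in opposite directions with the shRNA. Acsl3 encodes a synthetase of the endoplasmic reticulum and of lipid droplets, Acsl4 one that prefers arachidonate and other polyunsaturated fatty acids, and Acsl5 one found at mitochondria and the endoplasmic reticulum. Their promoters, from 250 bases before to 50 bases after the annotated start of transcription in RefSeq (build GRCm38.p6), are shown as the regulatory sequence next to genes that moved apart. The promoter of Acsl3 is chr1:78657575-78657874 on the plus strand, that of Acsl4 chrX:142390486-142390785 on the minus strand and that of Acsl5 chr19:55253119-55253418 on the plus strand. Each is written 5′ to 3′ on the strand of its gene, and capitals mark the only match to a searched motif.
Acsl3: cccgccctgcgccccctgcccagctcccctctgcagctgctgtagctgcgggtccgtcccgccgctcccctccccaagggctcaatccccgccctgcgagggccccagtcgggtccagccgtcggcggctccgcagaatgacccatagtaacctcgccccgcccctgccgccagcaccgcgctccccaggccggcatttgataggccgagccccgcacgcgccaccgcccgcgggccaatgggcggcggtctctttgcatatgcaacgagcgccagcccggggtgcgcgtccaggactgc
Acsl4: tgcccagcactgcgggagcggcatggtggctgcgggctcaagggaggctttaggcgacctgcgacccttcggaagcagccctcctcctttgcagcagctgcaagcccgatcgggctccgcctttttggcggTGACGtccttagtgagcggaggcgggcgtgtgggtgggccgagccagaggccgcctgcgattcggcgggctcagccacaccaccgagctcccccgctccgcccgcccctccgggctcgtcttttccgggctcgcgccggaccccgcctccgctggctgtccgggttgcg
Acsl5: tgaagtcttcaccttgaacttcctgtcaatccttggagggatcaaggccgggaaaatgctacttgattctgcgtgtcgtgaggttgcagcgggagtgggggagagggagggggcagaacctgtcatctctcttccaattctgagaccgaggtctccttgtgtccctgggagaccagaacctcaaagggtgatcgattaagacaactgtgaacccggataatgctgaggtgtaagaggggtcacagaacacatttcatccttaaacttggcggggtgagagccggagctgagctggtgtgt
The Acsl3 and Acsl4 promoters were rich in G and C (74% and 71.7% of bases, with 33 CpG dinucleotides each) and the Acsl5 promoter was close to the median of all promoters (53%, with 9 CpG, against a median of 52.7% G and C). The capitals in Acsl4 are a cAMP response element half-site, TGACG, on the plus strand of the gene and starting 119 bases before the start. It occurs on either strand in 20.8% of the 32851 promoters of the table, and the full element TGACGTCA, which contains it, in 1.79%. The PPAR direct repeat of 2 AGGTCA half-sites with 1 base between them (0.0396% of promoters), the half-site AGGTCA that it contains (16.3%), the E-box CACGTG (7.15%), the sterol regulatory element (0.0913%), the core of the interferon-stimulated response element, 2 GAAA with 2 bases between them (3.44%), and TATAAA (13.6%) were searched on both strands and not found in these windows. Of the other measured genes, Cd36 also had a promoter in the table, where the only match was 1 AGGTCA half-site on the opposite strand 228 bases before the start.

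Acsl3 was lower with TBLR1 shRNA by about 1 log2 unit. It read 9.12, 9.02 and 9.01 with TBLR1 shRNA and isoproterenol, against 9.97, 10.09 and 10.10 with control shRNA and isoproterenol. Without isoproterenol it read 9.16, 9.20 and 9.35 with TBLR1 shRNA, against 10.22, 10.18 and 10.19 with control shRNA. Every TBLR1 array lay far below every control array. The difference was -0.999 ± 0.052 with isoproterenol, which left 50.0% of the control signal (limma adjusted p = 4.55e-10), and -0.959 ± 0.052 without it, which left 51.4% (adjusted p = 1.04e-09). Acsl3 had the 54th lowest difference of the 15267 genes with isoproterenol and the 44th lowest without it. The call held under all 18 alternatives tried in each treatment, with differences of -1.04 to -0.89 and of -1.02 to -0.89. The adipocyte markers, whose fall is given above, had a median difference of -0.36 with isoproterenol and of -0.31 without it. Single markers lay well away from these medians. With isoproterenol Retn averaged 11.26 with TBLR1 shRNA against 12.86 with control shRNA, and Cidec 12.16 against 13.07. Without it Retn averaged 11.31 against 12.89 and Cidec 12.16 against 12.98. Of the 9 markers, 2 were not called with isoproterenol, and without it 1 was not called and Adipor2 was higher. Whether the fall of Acsl3 goes with that of these markers was not tested.

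Acsl4 was higher with TBLR1 shRNA and higher again with isoproterenol. It read 10.26, 10.10 and 10.22 with TBLR1 shRNA and isoproterenol, against 9.74, 9.75 and 9.79 with control shRNA and isoproterenol. On the untreated arrays it read 9.65, 9.35 and 9.57 with TBLR1 shRNA, against 9.17, 9.14 and 9.05 with control shRNA. The 4 groups formed 4 separate levels, with no overlap between any of them. The shRNA difference was 0.43 ± 0.06 with isoproterenol (1.35-fold, limma adjusted p = 3.86e-05) and 0.40 ± 0.06 without it (1.32-fold, adjusted p = 8.2e-05). The 2 middle levels, treated control cells above untreated TBLR1 cells, were 0.24 apart (adjusted p = 0.00618).

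Acsl5 was higher with TBLR1 shRNA in both treatments. It read 10.73, 10.70 and 10.80 with TBLR1 shRNA and isoproterenol, against 10.36, 10.21 and 10.34 with control shRNA and isoproterenol. Without the agonist its readings were 10.62, 10.63 and 10.56 with TBLR1 shRNA, against 10.22, 10.35 and 10.32 with control shRNA. All 6 TBLR1 arrays lay above all 6 control arrays. The difference was 0.44 ± 0.05 with isoproterenol (1.36-fold, limma adjusted p = 1.76e-06) and 0.31 ± 0.05 without it (1.24-fold, adjusted p = 9.43e-05). The calls of Acsl4, Acsl5 and Angptl4 for the shRNA held under all 18 alternatives in each treatment.

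**Figure D2:**
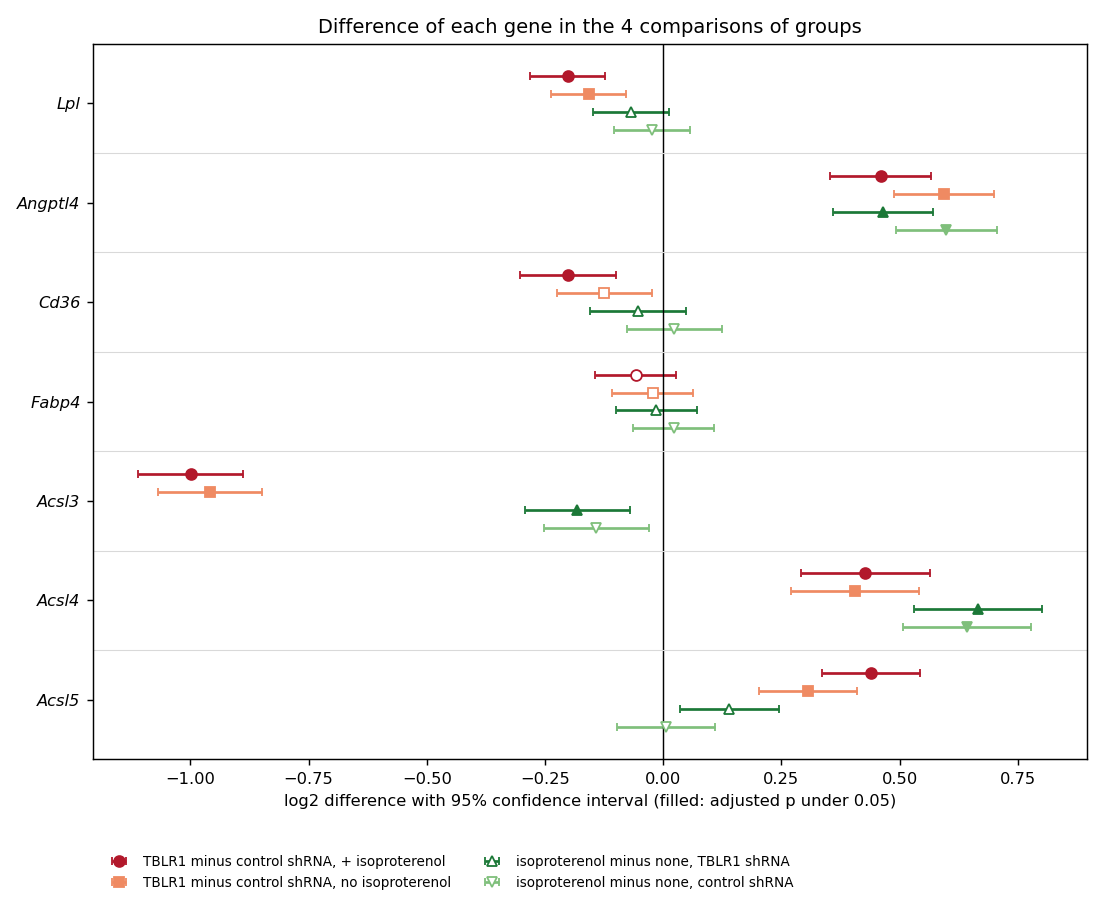
Log2 difference with its 95% confidence interval (horizontal axis) of the 7 genes in the 4 comparisons of groups, n = 3 arrays per group; filled points have an adjusted p under 0.05. Acsl3 stands at -0.999 and -0.959 for TBLR1 against control shRNA, and Acsl4 and Angptl4 lie right of 0 in all 4 comparisons.

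Permuting the shRNA labels exactly, within each treatment and with no fit across genes, gave a two-sided p = 0.005 for Acsl3, Acsl4, Acsl5, Lpl, Angptl4 and Cd36, the smallest that its 400 arrangements allow. That unadjusted p follows from groups that do not overlap, in the same direction, in both treatments, as given above. It therefore adds no support of its own. The same holds where the permutation of the treatment labels below gave p = 0.005. For Fabp4 this exact permutation gave p = 0.23. The exact permutation of the treatment labels, within each shRNA, gave p = 0.005 for Acsl3, Acsl4 and Angptl4, p = 0.06 for Lpl, p = 0.12 for Acsl5, p = 0.685 for Cd36 and p = 1 for Fabp4.

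Isoproterenol raised 2 of the 7 genes within 3 h, and they were the same with either shRNA: Acsl4 and Angptl4. With TBLR1 shRNA 3 of 7 genes were called, 2 higher and 1 lower, where 8.86% of all genes were called, 4.09% higher and 4.78% lower. With control shRNA 2 of 7 were called, both higher, against 18.6% of all genes, 7.7% higher and 10.9% lower. With the lowest 33% of genes left out, 1615 were called with TBLR1 shRNA (1353 of all) and 3017 with control shRNA (2833 of all). These shares too were larger among brighter genes, to which the 7 belong. The treated and untreated arrays did not overlap for 5 of the 7 genes with TBLR1 shRNA and for 3 with control shRNA, against 25.2% and 33.2% of all genes. The median difference of the 7 genes was -0.01 with TBLR1 shRNA and 0.02 with control shRNA, against 0.00 for all genes in both. Markers of cell types moved with the agonist too. With TBLR1 shRNA 1 of 9 adipocyte markers was higher, Cebpa (0.21), and no preadipocyte or fibroblast marker was called. With control shRNA the adipocyte markers Cebpa (0.60) and Adipor2 (0.20) were higher and Pparg (-0.34) was lower, and among the preadipocyte and fibroblast markers Col1a1 (0.21) was higher and Pdgfra (-0.44) and Pdgfrb (-0.23) were lower. Their part in the responses below was not tested.

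Acsl4 had the larger of the 2 responses. It rose by 0.67 ± 0.06 with TBLR1 shRNA (1.59-fold, limma adjusted p = 4.73e-06) and by 0.64 ± 0.06 with control shRNA (1.56-fold, adjusted p = 2.2e-06). These were the 68th highest difference of the 15267 genes with TBLR1 shRNA and the 136th highest with control shRNA, and Angptl4 was the 143rd highest with TBLR1 shRNA and the 160th highest with control shRNA. All 4 of these calls held under each of the 18 alternatives. Acsl3 was lower by -0.18 ± 0.05 with TBLR1 shRNA (adjusted p = 0.0391) and stood at -0.14 ± 0.05 with control shRNA, where it was not called (adjusted p = 0.0741) although the arrays did not overlap. The call with TBLR1 shRNA was marginal. It ended after cyclic loess (adjusted p = 0.0806), with hybridisation control centring (0.0971) and with only the 6 arrays compared (0.0795). It also ended without treated TBLR1 replicate 2 (0.131) or 3 (0.13), untreated TBLR1 replicate 2 (0.0677) or 3 (0.199), or untreated control replicate 2 (0.0508). With control shRNA Acsl3 was called with hybridisation control centring (-0.19, adjusted p = 0.0459), with only the 6 arrays compared (0.0493) and without untreated TBLR1 replicate 3 (0.0399).

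The other 4 genes were not called for isoproterenol. Acsl5 differed by 0.14 ± 0.05 with TBLR1 shRNA (limma adjusted p = 0.0907, and 0.0408 after cyclic loess) and by 0.01 ± 0.05 with control shRNA (adjusted p = 0.959). Lpl differed by -0.07 ± 0.04 and -0.02 ± 0.04 with TBLR1 and control shRNA, and Cd36 by -0.05 ± 0.05 and 0.02 ± 0.05. Fabp4 differed by -0.01 ± 0.04 with TBLR1 shRNA and by 0.02 ± 0.04 with control shRNA. Of the 3 synthetases, Acsl4 was thus the one called higher with the agonist in this model.

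**Figure D3:**
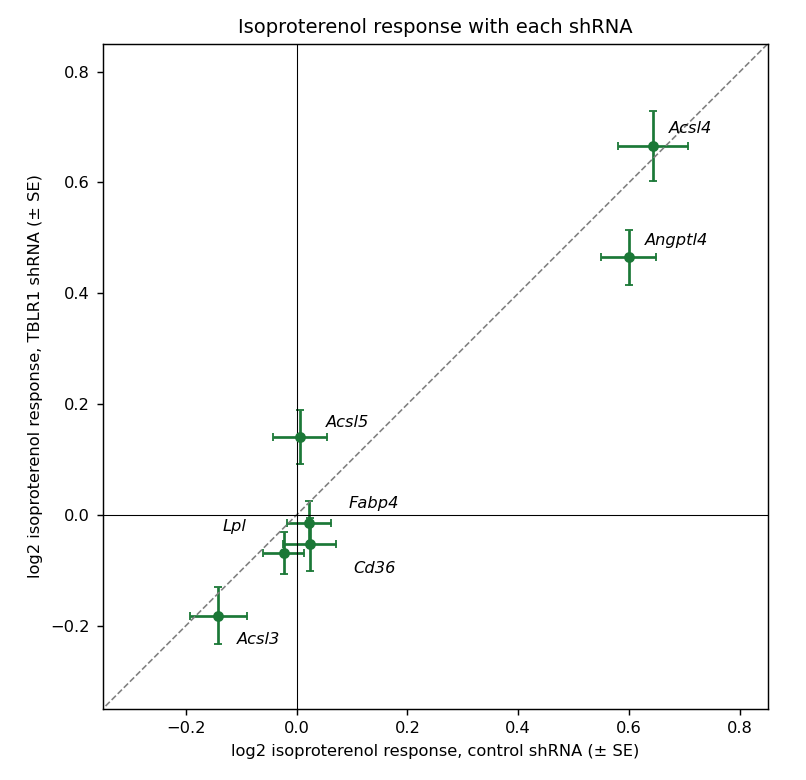
Isoproterenol response (log2 difference ± SE, n = 3 arrays per group) of the 7 genes with TBLR1 shRNA (vertical axis) and with control shRNA (horizontal axis); the dashed line marks equal responses. Acsl4 (0.67 and 0.64) and Angptl4 (0.46 and 0.60) lie far from 0 on both axes.

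The response to isoproterenol was not shown to differ between the shRNAs for any of the 7 genes. In the test of the difference between the responses, 0 of 7 were called by limma, and 0 of 7 had an unadjusted p under 0.05, against 2.4% of all genes called, 1.07% higher and 1.33% lower. The values ran from -0.13 for Angptl4 (95% interval -0.28 to 0.02, adjusted p = 0.437) to 0.13 for Acsl5 (95% interval -0.01 to 0.28, adjusted p = 0.43). The median was -0.04, against 0.00 for all genes. The shRNA difference of Angptl4 was in that sense neither shown to depend on the agonist nor shown to be the same with and without it.

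Counts for 5 lists of other genes of the pathway stand against the 41.7% of all genes that were called for the shRNA with isoproterenol and the 37.7% called without it, and a count near those shares is no result about a list. The calls for isoproterenol in these lists stand against 8.86% of all genes with TBLR1 shRNA and 18.6% with control shRNA. Where a call was lost with hybridisation control centring, that centring had shifted all genes of an array alike. Under it the median of all genes for the shRNA was 0.10 with isoproterenol and 0.06 without it. For isoproterenol the median was -0.01 with TBLR1 shRNA and -0.05 with control shRNA. Among 12 measured of 15 other acyl-CoA synthetases and transporters, 1 was higher and 4 were lower with TBLR1 shRNA and isoproterenol (median -0.06), and 1 was higher and 3 were lower without it (median -0.01), in both cases close to the share of all genes called. The lower ones were the acyl-CoA binding protein gene Dbi and the caveolin genes Cav1 and Cav2, which code for the coat of membrane pits abundant on fat cells. Dbi read 13.36, 13.24 and 13.19 with TBLR1 shRNA and isoproterenol, against 13.70, 13.78 and 13.78 with control shRNA and isoproterenol. Without isoproterenol it read 13.25, 13.17 and 13.18 with TBLR1 shRNA, against 13.85, 13.75 and 13.61 with control shRNA, so the groups did not overlap. Dbi differed by -0.49 and -0.54, Cav2 by -0.53 and -0.34 and Cav1 by -0.32 and -0.24, with isoproterenol and without it. Named after their values were seen, the transporter gene Slc27a1 was the higher one (0.16 and 0.22) and Acsl6 the further lower one with isoproterenol (-0.13, and -0.02 with hybridisation control centring, adjusted p = 0.847). Isoproterenol lowered only Cav2 in this list, with TBLR1 shRNA (-0.16), a call that neither cyclic loess nor hybridisation control centring kept.

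Few acyl-CoA thioesterases, which undo the work of the synthetases, were called. Of 12 measured of 13, 2 were higher and 1 lower with TBLR1 shRNA and isoproterenol (median 0.02), and 1 was higher and 1 lower without it (median 0.02). Both counts lie below the 41.7% and 37.7% of all genes called. Acot1, Acot3, Acot4, Acot5, Acot11 and Acot12 read 5.93 to 6.70, below the array median of 7.14. Dimmer genes were called less often, so the low counts are no result about the family. Acot7 read 10.42, 10.46 and 10.46 with TBLR1 shRNA and isoproterenol, against 9.95, 9.84 and 9.90 with control shRNA and isoproterenol, and was higher by 0.55 ± 0.05 (limma adjusted p = 9.03e-08). Without isoproterenol Acot7 was higher by 0.49 ± 0.05 (adjusted p = 3.9e-07). Acot13 was lower by -0.42 with isoproterenol and by -0.34 without it, and Acot8, named after its value was seen, was higher by 0.17 with isoproterenol. Isoproterenol raised Acot2, a mitochondrial thioesterase gene, by 0.23 with TBLR1 shRNA and by 0.27 with control shRNA. With TBLR1 shRNA Acot7 was called as well (0.16), and both of these calls with TBLR1 shRNA were lost with hybridisation control centring. Of 6 measured of 7 other fatty acid binding proteins, none was higher. All 6 were dim: they read 5.61 to 7.12, below the array median of 7.14 on every array. With isoproterenol Fabp12 (-0.29) and Fabp9 (-0.14) were lower with TBLR1 shRNA, and without it Fabp9 (-0.15) was. The Fabp9 calls ended with hybridisation control centring (-0.03 with isoproterenol, adjusted p = 0.724, and -0.08 without it, adjusted p = 0.371). The median of all genes under that centring was 0.10 with isoproterenol and 0.06 without it. Fabp12 was also called for isoproterenol with control shRNA (0.14), likewise lost with that centring.

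**Figure D4:**
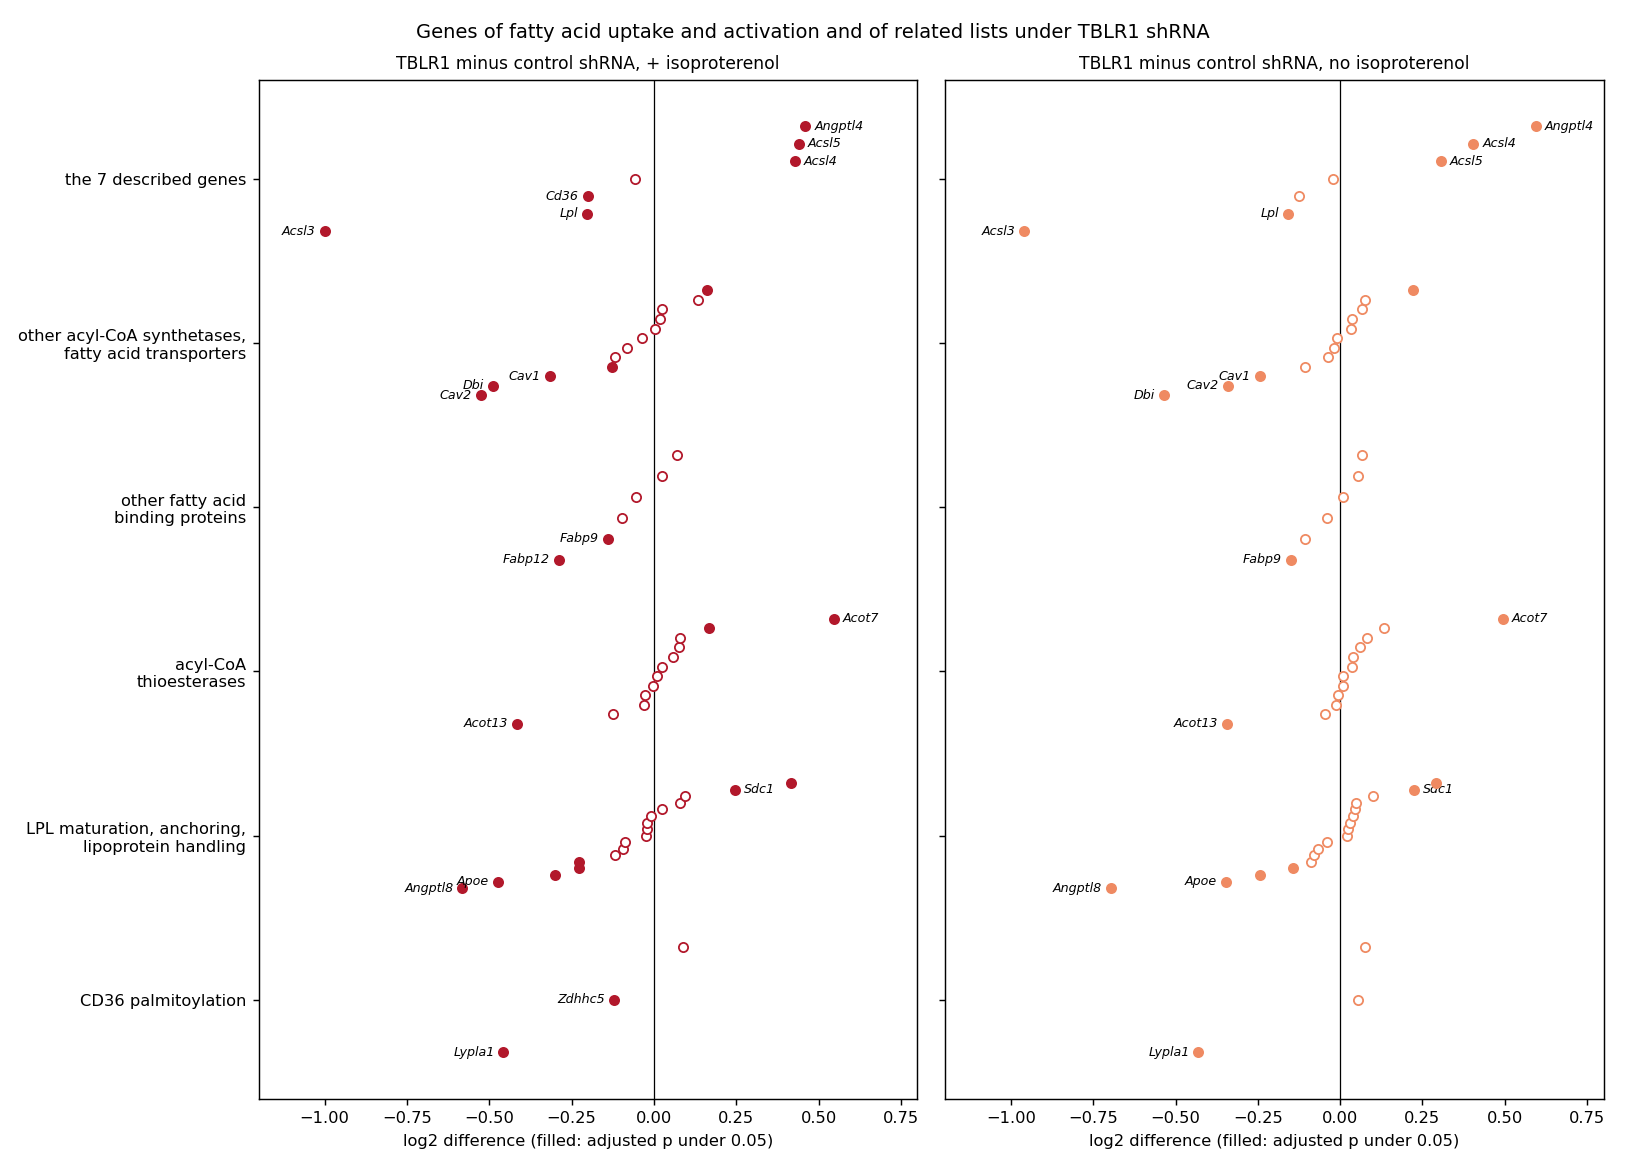
Log2 difference between TBLR1 and control shRNA with isoproterenol (left) and without it (right) for the 7 genes and for 5 lists of related genes; each point is a gene, sorted by its difference within a list, and filled points have an adjusted p under 0.05. Acsl3 has the most negative difference of the genes shown in both panels, and every list but that of the other fatty acid binding proteins and that of CD36 palmitoylation has called genes on both sides of 0.

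Genes that mature, anchor or regulate lipoprotein lipase were called about as often as all genes. Of 17 measured of 20, 2 were higher and 5 lower with TBLR1 shRNA and isoproterenol (median -0.03), and 2 were higher and 4 lower without it (median 0.02), against 41.7% and 37.7% of all genes called. Angptl8, whose product forms complexes with other angiopoietin-like proteins that set lipase activity, read 7.37, 7.29 and 7.46 with TBLR1 shRNA and isoproterenol, against 7.93, 8.03 and 7.90 with control shRNA and isoproterenol. On the untreated arrays it read 7.52, 7.56 and 7.60 with TBLR1 shRNA, against 8.26, 8.21 and 8.31 with control shRNA. It was lower by -0.58 (limma adjusted p = 1.07e-07) and by -0.70 (adjusted p = 2.09e-08), the opposite direction to Angptl4. Isoproterenol lowered it further, by -0.19 with TBLR1 shRNA, a call lost with hybridisation control centring, and by -0.31 with control shRNA. Apoe, the apolipoprotein E gene, was lower with TBLR1 shRNA by -0.47 with isoproterenol and by -0.35 without it. Sdc1, which encodes a heparan sulphate proteoglycan, was higher by 0.25 and 0.22, and isoproterenol raised it by 0.48 with TBLR1 shRNA and by 0.45 with control shRNA. The remaining called genes, named after their values were seen, were Lmf2 (0.42 with isoproterenol and 0.29 without it), Apoc1 (-0.30 and -0.24), Furin (-0.23 and -0.14) and, with isoproterenol, Lrp1 (-0.23). The calls of Furin and Lrp1 ended with hybridisation control centring (Furin -0.12, adjusted p = 0.13, and -0.07, adjusted p = 0.404, and Lrp1 -0.12, adjusted p = 0.115). The median of all genes under that centring was 0.10 with isoproterenol and 0.06 without it, and both genes stood below it. With control shRNA, isoproterenol was also called for Apoe (0.17) and Lmf1 (0.15), both lost with that centring.

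The list for CD36 palmitoylation, the lipid modification that takes CD36 to the cell surface, held 3 genes, all measured. Lypla1, which encodes an acyl-protein thioesterase, read 9.05, 8.83 and 8.85 with TBLR1 shRNA and isoproterenol, against 9.37, 9.35 and 9.39 with control shRNA and isoproterenol. It was lower by -0.46 with isoproterenol and by -0.43 without it (limma adjusted p = 6.96e-06 and 1.68e-05). The median of the 3 genes was -0.12 with isoproterenol and 0.05 without it. The palmitoyl transferase gene Zdhhc5 was lower by -0.12 with isoproterenol, a call lost with hybridisation control centring (-0.01, adjusted p = 0.912). Under that centring the median of all genes was 0.10.

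Over the 12 arrays, the genes whose levels followed each measured gene most closely were, by Pearson's r, Car3 (0.997) and Lgals12 (0.995) for Acsl3, Tubb2a (0.986) and Fam107b (0.977) for Acsl4, and Ifi30 (0.986) and Axl (0.98) for Acsl5. For Lpl they were Tcaim and Cav1 (both 0.983), for Angptl4 Eps8 (0.991) and Prdm2 (0.99), for Cd36 Strip2 (0.96) and Sec11c (0.954), and for Fabp4 Adam5 (0.886) and Taf11 (0.862). These values describe arrays that share 4 groups and 1 normalisation and are given without a test. The share of a gene's variance over the arrays that lay between groups was 98.8% for Acsl3, 98.1% for Angptl4, 96.3% for Acsl4, 93.7% for Acsl5 and for Lpl, 76.0% for Cd36 and 33.2% for Fabp4.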

How the data were processed

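The 12 samples, one Affymetrix array each, were put in 4 groups of 3 from their labels. The authors deposited log2 levels per probe set, a scale inferred from their range of 5.39 to 14.58. These had been quantile normalised before deposit, since the sorted values of any pair of arrays differed by at most 0.00781; how background was corrected and probes were summarised is not given in the sources used here. An array gives no counts, so its precision rests on the number of arrays.

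Of 16553 probe sets, 61 were controls, 15270 carried 1 symbol in the platform annotation, which can be old, and 1222 carried none and were left out. Where a gene had 2 probe sets, as 3 genes did, the brighter was kept. Group means were estimated in limma 3.58.1 (R 4.3.3, eBayes, 8 residual and 7.38 prior degrees of freedom), and 5 contrasts were tested, two-sided, with Benjamini-Hochberg adjustment over all genes; the code was tested on simulated data. Contrasts that share arrays are not independent.

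The members and lists were chosen with earlier results of these data known. By rule the text names all members, Tbl1xr1 and up to 3 called genes per list, those with the largest differences. Promoter sequences are from RefSeq (4 of 7 genes matched). Alternatives were cyclic loess, centring on 18 hybridisation control probe sets, a filter on the lowest 33% of genes, trend and robust moderation, only the arrays compared, a replicate block and leaving out each array. The plots were made in matplotlib 3.10.9 (Python 3.11.15).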

Additional observations from a re-analysis of the deposited data

Results flagged for a closer look

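Of 57 genes looked at, the 7 measured members and the 50 measured genes of the related lists, 1 had isoproterenol responses that differed between the shRNAs, where 2.4% of all genes were called, so the count is no result about these genes. Zdhhc5, a palmitoyl transferase gene, read 8.31, 8.27 and 8.25 with TBLR1 shRNA and isoproterenol, against 8.39, 8.40 and 8.40 with control shRNA and isoproterenol. Without the agonist its readings were 8.19, 8.18 and 8.19 with TBLR1 shRNA, against 8.10, 8.11 and 8.12 with control shRNA. Isoproterenol raised it by 0.29 ± 0.03 with control shRNA, and the response with TBLR1 shRNA was smaller by -0.20 ± 0.05 (limma adjusted p = 0.0458). The call was near its threshold. It held in 4 of 17 alternatives, with values of -0.21 to -0.16 and adjusted p of 0.027 to 0.612; without an array at a time it held only when treated TBLR1 replicate 1 was left out (adjusted p = 0.0444). Groups of 3 arrays were not tested for outlying samples.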

How the results depend on the processing

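Of 712 values of single genes under alternatives, 670 kept their direction and side of the threshold, 12 lost a call, 8 gained one and 22 changed sign, the last all among values not called. With hybridisation control centring these were Fabp4 (0.0531 for the shRNA with isoproterenol and 0.0482 without it, -0.0266 for isoproterenol with control shRNA, 0.00488 for the difference between responses), Acsl5 (-0.0422), Cd36 (-0.0253) and Tbl1xr1 (-0.00705) for isoproterenol with control shRNA, and Acsl3 for the difference between responses (0.000975). That centring shifted all genes of an array alike. Relative to the median of all genes under it, Fabp4 stood at -0.05 and -0.01 for the shRNA with and without isoproterenol. After cyclic loess Fabp4 read 0.0171 and 0.0313 for the shRNA with and without isoproterenol and 0.0138 for isoproterenol with TBLR1 shRNA. Leaving out 1 array at a time gave, for the difference between responses, -0.0794 to 0.0159 for Acsl3 and -0.0628 to 0.0846 for Acsl4; for isoproterenol with control shRNA, -0.0300 to 0.0540 for Acsl5, -0.0124 to 0.0794 for Cd36 and -0.0443 to 0.00456 for Lpl; and for isoproterenol with TBLR1 shRNA, -0.0436 to 0.0111 for Fabp4.

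The genes called for the difference between responses were 198 to 385 without 1 array (366 with all; lowest without treated TBLR1 replicate 3), and for isoproterenol with TBLR1 shRNA 752 to 1681 (1353 with all; lowest without untreated TBLR1 replicate 3). Hybridisation control centring moved the share of higher genes among the called to 75.04% against 46.7% (shRNA, with isoproterenol), 66.6% against 46.9% (without it), 25.2% against 41.5% (isoproterenol, control shRNA) and 59.9% against 44.5% (difference between responses), and cyclic loess to 57.0% against 46.1% (isoproterenol, TBLR1 shRNA). The hybridisation controls averaged 11.17 ± 0.04 with TBLR1 shRNA and isoproterenol, 11.28 ± 0.08 with control shRNA and isoproterenol, 11.16 ± 0.02 with TBLR1 shRNA alone and 11.23 ± 0.02 with control shRNA alone (SD, n = 3). Replicate numbers showed no clear pairing: 2 of 18 same-number pairs correlated over 0.1 (-0.21 to 0.18). Pairs of different number ran from -0.19 to 0.26. Such correlations cannot show that the samples were unpaired. With a replicate block 5623 genes (shRNA, without isoproterenol), 6279 (with it), 2723 (isoproterenol, control shRNA), 1267 (TBLR1 shRNA) and 320 (difference) were called, and 1 call among the 7 genes was lost, that of Acsl3 for isoproterenol with TBLR1 shRNA (adjusted p = 0.0559). No gene of the 7 had several probe sets, so the alternative for such genes was not run. The cause of these shifts was not tested.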
